A study of Homo sapiens with 3 samples.

Results

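Glycolysis and hypoxia-responsive genes were examined as a set of 32 genes chosen by name, out of 33423 genes that had a row in at least 1 of 3 Drop-seq libraries. The set held 16 glycolytic enzymes, 6 genes of glucose transport and of regulation of the pathway, and 10 genes known to respond to low oxygen. The libraries were LNCaP–ENZ168, the prostate cancer line LNCaP after 168 h in 10 µM of the antiandrogen drug enzalutamide (ENZ), VCaP parental, the prostate cancer line VCaP after 48 h in 0.1% DMSO as vehicle, and VCaP–ENZ48, VCaP after 48 h in 10 µM ENZ. Both lines are labelled as enzalutamide-sensitive. LNCaP was grown in RPMI 1640 with added glucose and pyruvate, and VCaP in DMEM, so that line, medium, time of exposure and preparation change together and cannot be told apart between LNCaP–ENZ168 and the VCaP libraries. Each library was 1 preparation, with no replicate. No statistical test was therefore made, and all intervals cover counting error only. Untreated LNCaP was not analysed here.

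Glycolysis splits glucose into pyruvate, which lactate dehydrogenase turns into lactate when the pyruvate is not passed to the mitochondria. In low oxygen the hypoxia-inducible factors (HIF) are no longer hydroxylated and degraded, and they raise transcription of most glycolytic enzymes together with genes of angiogenesis, mitophagy and collagen hydroxylation. HIF binds short hypoxia response elements whose core is ACGTG or GCGTG.

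After filtering, 944 cells of LNCaP–ENZ168, 997 of VCaP parental and 947 of VCaP–ENZ48 remained, with 6313283, 19515202 and 14301287 unique molecular identifiers (UMIs), in that order. Median depth per cell was 5389, 17817 and 11224 UMIs, and mitochondrial genes took 8.94%, 6.24% and 7.49% of UMIs. Levels are given as UMIs per 1000000 UMIs kept in the library (CPM). A UMI counts 1 molecule whatever the length of its transcript, so levels of different genes were compared without length scaling. The epithelial and prostate genes KRT8, KRT18 and HOXB13 were present in all libraries, while the defining markers of leukocytes (PTPRC), fibroblasts (COL1A2) and endothelium (PECAM1) had at most 2 UMIs in any library. COL1A1, also a fibroblast marker, had 10, 8 and 12 UMIs in the same order as above, or 1.58, 0.410 and 0.839 CPM. ERG, which VCaP carries as a fusion gene, had 0 UMIs in LNCaP–ENZ168, which allows up to 0.475 CPM, and stood at 105 CPM in VCaP parental and 57.1 CPM in VCaP–ENZ48. The prostate kallikrein genes KLK2 and KLK3, which androgens are known to induce, were higher in the library labelled VCaP–ENZ48 than in VCaP parental, with 3053 against 1554 CPM for KLK2 and 10.9 against 7.64 CPM for KLK3. In LNCaP–ENZ168 they stood at 27.1 and 91.9 CPM. Barcodes ending in an undetermined base made up 205, 859 and 820 of the kept barcodes, and 1 barcode was shared within each pair of libraries.

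The 16 enzymes together took 0.821% of all UMIs in LNCaP–ENZ168 (95% Clopper-Pearson interval 0.814 to 0.828), 0.610% in VCaP parental (0.606 to 0.613) and 0.466% of those in VCaP–ENZ48 (0.462 to 0.470). The 10 hypoxia-responsive genes took 0.0933%, 0.0433% and 0.0328%, and the 6 transport and regulatory genes 0.00596%, 0.00463% and 0.00323%. All these totals had the same order, with LNCaP–ENZ168 highest and VCaP–ENZ48 lowest, and their intervals did not overlap. These shares were not set against the median of genes averaging 10 CPM or more. On the log2 scale of CPM + 1 that median was 0.65 for LNCaP–ENZ168 over VCaP–ENZ48. For VCaP–ENZ48 over VCaP parental it was -0.066. GAPDH, glyceraldehyde-3-phosphate dehydrogenase, led the enzymes in each library, with 3327, 1596 and 1477 CPM. The next gene differed by line: it was triosephosphate isomerase TPI1 in LNCaP–ENZ168 (1200 CPM, 14.6% of enzyme UMIs) and lactate dehydrogenase B in both VCaP libraries (LDHB, 1429 and 1030 CPM, 23.4% and 22.1% of enzyme UMIs). The least abundant enzyme was hexokinase 2 (HK2), at 4.28, 3.28 and 4.13 CPM. All members but 2 had a row in every library. The glucose transporter gene SLC2A3 had 0 UMIs in LNCaP–ENZ168 and 10 and 2 in VCaP parental and VCaP–ENZ48, and carbonic anhydrase CA9, a standard hypoxia marker, had 1 UMI in LNCaP–ENZ168 and 0 in each VCaP library, which allows up to 0.154 and 0.210 CPM.

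**Figure D1:**
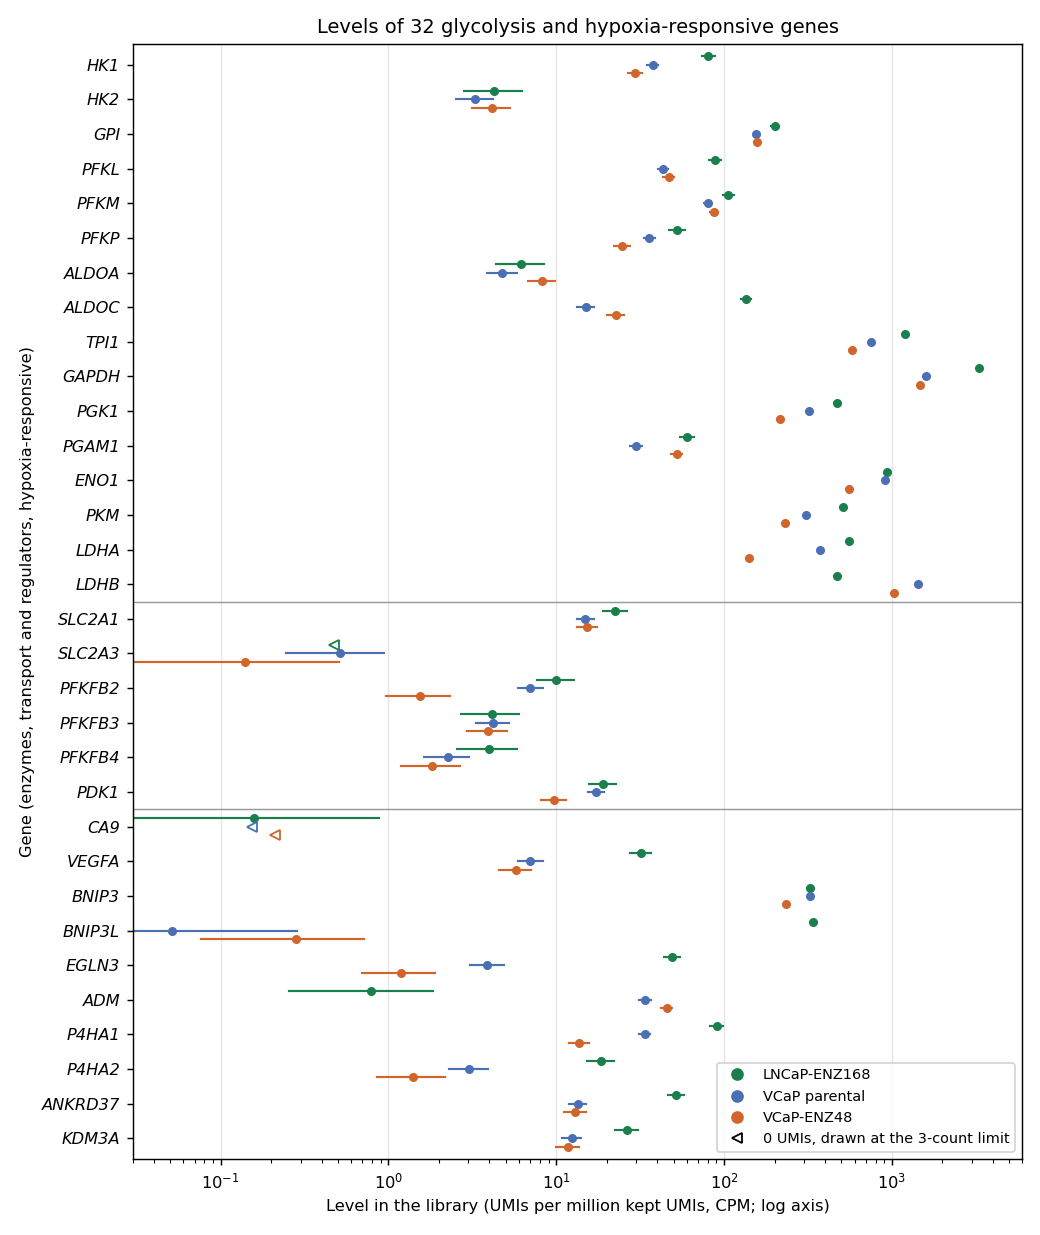
Levels of the 32 genes in each library in CPM on a log axis, with points for the measured level, bars for exact Poisson 95% intervals and open triangles at the 3-count limit where no UMI was counted. LDHA runs from 556 CPM in LNCaP–ENZ168 to 141 CPM in VCaP–ENZ48, while BNIP3L and ADM are each nearly absent from 1 line.

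The first comparison asked how 48 h of ENZ changed these genes in VCaP. Among members averaging 10 CPM or more, lactate dehydrogenase A and the prolyl hydroxylase subunit gene P4HA1 fell by more than 2-fold. No such member rose by that much. The 7729 genes that averaged 10 CPM or more over both libraries had a median that differed by -0.066 on the log2 scale of CPM + 1, and each gene was read relative to that median. A gene was called up or down if it then differed by at least 2-fold. Among all tested genes 8.97% were called up and 6.03% down, while among the 21 members that reached 10 CPM 0 were called up and 2 down. Of these 21, 8 lay above the median gene and 13 below. There is 1 library on each side, so the difference between libraries is not shown to come from the treatment.

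LDHA (chr11:18394560-18408425), whose protein favours the step from pyruvate to lactate, had 374 CPM in VCaP parental, with an interval of 366 to 383, and 141 CPM after ENZ (135 to 148). The ratio of CPM was 0.378 (95% counting interval 0.360 to 0.397), and the log2 ratio relative to the median gene was -1.33. LDHA lay at percentile 3.89 of all tested genes and stayed past the 2-fold line under each of the 16 alternative settings, at -1.56 to -1.17. Of these settings, a minimum of 1000 UMIs and the merging of barcodes 1 base apart left its value unchanged. P4HA1 (chr10:73007217-73096974), the catalytic subunit of the enzyme that hydroxylates collagen prolines, stood at 33.7 CPM (31.1 to 36.3) in VCaP parental and 13.7 CPM (11.9 to 15.8) in VCaP–ENZ48. Its relative log2 ratio was -1.17, which shrank to -0.99, inside the 2-fold line, with a pseudocount of 5 CPM. In LNCaP–ENZ168 both genes had a higher CPM than in either VCaP library, at 556 CPM for LDHA and 90.3 CPM for P4HA1. These levels were not read relative to the median gene, which also differed between the lines.

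To show the sequence next to the genes that fell, and to BNIP3, which had most of the hypoxia-responsive UMIs in both VCaP libraries, the 250 bases before the start of LDHA (chr11:18394313-18394562, plus strand), P4HA1 (chr10:73096867-73097116, minus strand) and BNIP3 (chr10:131981924-131982173, minus strand) are printed from RefSeq on GRCh38.p14, read 5′ to 3′ along the gene. Capitals mark ACGTG and GCGTG and their reverse complements CACGT and CACGC.
LDHA: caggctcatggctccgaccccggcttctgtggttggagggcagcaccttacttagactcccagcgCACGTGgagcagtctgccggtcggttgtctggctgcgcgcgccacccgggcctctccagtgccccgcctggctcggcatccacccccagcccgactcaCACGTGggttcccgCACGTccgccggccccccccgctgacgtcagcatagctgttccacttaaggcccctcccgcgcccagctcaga
P4HA1: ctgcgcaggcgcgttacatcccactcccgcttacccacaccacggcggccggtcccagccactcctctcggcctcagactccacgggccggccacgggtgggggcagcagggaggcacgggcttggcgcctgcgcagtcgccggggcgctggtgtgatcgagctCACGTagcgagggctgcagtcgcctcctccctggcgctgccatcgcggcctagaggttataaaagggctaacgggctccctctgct
BNIP3: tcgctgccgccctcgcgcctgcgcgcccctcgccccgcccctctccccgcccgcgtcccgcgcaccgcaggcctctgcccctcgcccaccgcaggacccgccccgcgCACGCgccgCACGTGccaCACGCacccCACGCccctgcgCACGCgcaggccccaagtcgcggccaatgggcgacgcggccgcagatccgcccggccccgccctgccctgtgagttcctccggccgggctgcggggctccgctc

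These stretches hold 5 matches to ACGTG in LDHA, 1 in P4HA1 and 2 in BNIP3, counted on both strands, so that the palindrome CACGTG, present 2 times in LDHA and 1 time in BNIP3, counts on each strand. GCGTG was found 4 times in BNIP3 and 0 times in LDHA and P4HA1. In the full window of 250 bases before and 50 bases after the start, 20 of the 28 members with a RefSeq promoter (71.4%) held ACGTG or GCGTG, against 13213 of 27305 promoters (48.4%). ACGTG alone was in 39.3% of members and 21.6% of all promoters, GCGTG in 14 of 28 members and 36.3%, and CACGTG in 17.9% and 7.43%. EGLN3, PDK1, P4HA2, HK1, PFKM, PFKP, PGAM1 and TPI1 had neither core in the window. A match is only a string of letters and was not shown to be a bound site.

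Along the pathway, the other enzymes stayed within 2-fold in VCaP. Their order by relative log2 ratio ran from enolase ENO1 (905 and 554 CPM in VCaP parental and VCaP–ENZ48, -0.64) to phosphoglycerate mutase PGAM1 (29.8 and 52.3 CPM, 0.86). Between ENO1 and -0.3 lay PGK1, the first ATP-forming step (323 and 215 CPM, -0.52), LDHB (-0.41), pyruvate kinase PKM (309 and 232 CPM, -0.35) and TPI1 (755 and 579 CPM, -0.31). Among the early steps, hexokinase HK1 stood at 37.7 and 29.4 CPM (-0.28) and phosphofructokinase PFKP at 35.9 and 24.8 CPM (-0.45). The value for PFKP ran from -0.76 to 0.16 over the 16 settings, so its direction was not settled. Glucose-6-phosphate isomerase GPI (155.8 and 156.5 CPM, 0.073), PFKL (43.4 and 47.0 CPM, 0.18), PFKM (80.04 and 86.8 CPM, 0.18) and GAPDH (-0.045) lay close to the median gene, and each changed sign under at least 1 alternative setting. Aldolase ALDOC (15.01 and 22.6 CPM, 0.63) and PGAM1 lay above it under each of the 16 settings, and PGAM1 was past the 2-fold line, at 1.12, when only cells called G1 were compared. Over the 14 enzymes tested the median was -0.30 (counting range -0.38 to -0.20), with 5 above and 9 below the median of all genes, whose quartiles were -0.37 and 0.40.

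Of the genes that feed and steer the pathway, 2 of 6 reached 10 CPM. The main glucose transporter gene SLC2A1 differed little, at 14.9 CPM in VCaP parental and 15.2 CPM in VCaP–ENZ48, and changed sign relative to the median gene between settings (-0.15 to 0.39). PDK1, the kinase that shuts pyruvate dehydrogenase, stood at 17.4 (15.6 to 19.3) and 9.65 CPM (8.11 to 11.4), a relative log2 ratio of -0.72. PFKFB2, PFKFB3 and PFKFB4, which set the level of the phosphofructokinase activator fructose 2,6-bisphosphate, were all under the minimum. PFKFB2 stood at 7.02 CPM (137 UMIs) and 1.54 CPM (22 UMIs), a ratio of 0.219 (0.133 to 0.345). PFKFB3 had 4.202 and 3.92 CPM and PFKFB4 2.25 and 1.82 CPM, and the intervals of these pairs overlapped.

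Of the 10 hypoxia-responsive genes, 5 were tested in VCaP and their median was -0.0057 (-0.30 to 0.28), next to the median gene. This list median lay further below the median gene in G1 cells alone and with a minimum of 1 CPM, as given in the closing section. Apart from P4HA1, BNIP3, which marks mitochondria for removal, had 326 CPM in VCaP parental (interval 318 to 334) and 235 CPM after ENZ (227 to 243), -0.40 relative to the median gene. ADM, which codes for the vasodilator peptide adrenomedullin, stood at 33.8 and 45.6 CPM (0.49). ANKRD37 (13.4 and 13.0 CPM) and the histone demethylase gene KDM3A (12.4 and 11.7 CPM) had overlapping intervals, and both changed sign between settings. Among the members under 10 CPM, the HIF prolyl hydroxylase gene EGLN3 had 76 and 17 UMIs (3.89 and 1.19 CPM), P4HA2, another catalytic subunit of the collagen enzyme, had 59 and 20 UMIs (3.02 and 1.40 CPM), and the angiogenic factor gene VEGFA had 137 and 82 UMIs (7.02 and 5.73 CPM). With a minimum of 1 CPM, PFKFB2 (-1.82) and EGLN3 (-1.33) were also past the 2-fold line.

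**Figure D2:**
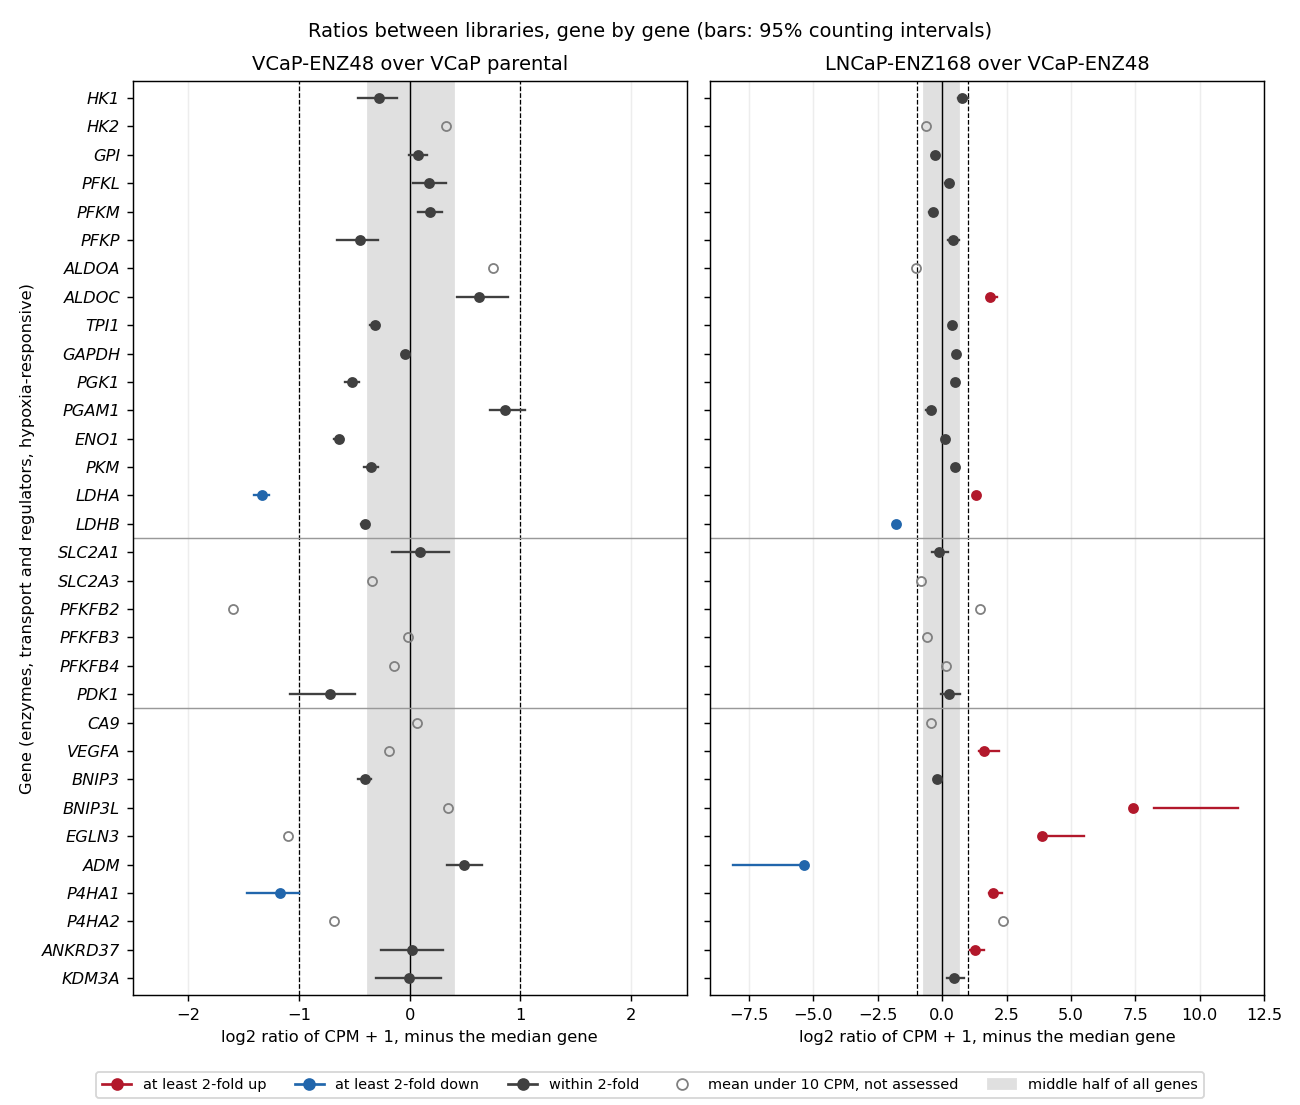
Log2 ratio of CPM + 1 minus that of the median gene for each member, VCaP–ENZ48 over VCaP parental on the left and LNCaP–ENZ168 over VCaP–ENZ48 on the right, with different x ranges. Bars are exact 95% counting intervals of the ratio without pseudocount, so that points of scarce genes can lie outside them, grey bands run from the lower to the upper quartile of all tested genes and dashed lines mark 2-fold. Open circles mark members with a mean under 10 CPM, which were not tested, and some of these also lie past the dashed lines. Of the tested members, LDHA and P4HA1 lie below the lower line on the left, and 7 lie above and 2 below on the right. On the right, BNIP3L, EGLN3, VEGFA and ADM were tested only through the library where they were high.

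The neighbouring pathways gave a mixed picture in VCaP. Of 10 HIF pathway genes, 4 were tested and 0 were called, with 3 above and 1 below the median gene and a median of 0.29 (0.085 to 0.52). The gene below was HIF1A itself, at 76.5 CPM in VCaP parental and 50.5 CPM in VCaP–ENZ48 (-0.52). Those above were CITED2, an inhibitor of HIF (13.2 and 20.3 CPM, 0.66), HIF1AN, which hydroxylates it (10.5 and 12.4 CPM, 0.29), and VHL, which targets it for degradation (48.4 and 56.7 CPM, 0.29). EPAS1, another HIF gene, was under the minimum and went the other way from HIF1A. It stood at 4.66 CPM (91 UMIs) in VCaP parental and 9.65 CPM (138 UMIs) in VCaP–ENZ48. Of 29 other hypoxia-responsive genes, 20 were tested, and their median was 0.29 (0.16 to 0.49). Of these 20, 2 were called up and 0 down, beside 8.97% up and 6.03% down among all tested genes. The 2 were BHLHE41, a transcriptional repressor (17.9 and 40.5 CPM), and CCNG2, a cyclin of arrested cells (35.0 and 74.7 CPM). Of 13 genes of pyruvate entry into mitochondria, 10 were tested, 0 were called, and 8 lay below the median gene, with a median of -0.56 (-0.64 to -0.49). The list includes the pyruvate carrier subunit MPC2 (590 and 321 CPM, -0.81) and the pyruvate dehydrogenase subunit DLAT (73.8 and 35.9 CPM, -0.95). Of the other glycolysis and gluconeogenesis genes 9 were tested and of the pentose phosphate genes 6, with medians of -0.054 and -0.070 and 0 calls in both.

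The second comparison set the ENZ-treated cells of LNCaP against those of VCaP. BNIP3L, EGLN3, P4HA1, VEGFA, ANKRD37, ALDOC and LDHA were more than 2-fold higher in LNCaP–ENZ168, and ADM and LDHB more than 2-fold lower. Here the median of the 8854 tested genes was 0.65 higher in LNCaP–ENZ168 on the log2 scale of CPM + 1. That shift fell to 0.10 with TMM scaling. Calls and log2 ratios are again relative to that median. Ratios with counting intervals are CPM over CPM and still hold the shift. For LDHA such a ratio was 3.93, and 2.48 relative to the median gene, and for LDHB 0.458 and 0.291. Of all tested genes 15.2% were called up and 18.6% down, and of the 24 members tested 7 were called up and 2 down. Of those called, BNIP3L, EGLN3, VEGFA and ADM reached the minimum only through the library where they were high. The member counts are therefore only a description. The spread over all genes was wider than between the VCaP libraries, with quartiles at -0.70 and 0.64.

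Of the 10 hypoxia-responsive genes 8 were tested, 5 were called up and 1 down, and the median was 1.45 (counting range 1.26 to 1.91). BNIP3L, EGLN3, VEGFA and ADM reached the mean of 10 CPM only through the library where they were high, so that they had to differ, and these counts and this median only describe the tested members. Of the 4 members with 10 CPM or more in both libraries, P4HA1 and ANKRD37 were called up and BNIP3 and KDM3A were within 2-fold. BNIP3L (chr8:26383054-26505636), a mitophagy receptor like BNIP3, had 2142 UMIs (339 CPM) in LNCaP–ENZ168, 1 UMI in VCaP parental (0.0512 CPM) and 4 UMIs in VCaP–ENZ48 (0.280 CPM), so that the ratio between treated lines was 1213 (473 to 4456). EGLN3 (chr14:33924227-34462774) stood at 48.9 CPM in LNCaP–ENZ168 (43.6 to 54.7) against 1.19 CPM in VCaP–ENZ48, a ratio of 41.2 (25.3 to 71.6). P4HA1 had a ratio of 6.59 (5.59 to 7.79), VEGFA of 5.55 (31.8 against 5.73 CPM, 4.27 to 7.27) and ANKRD37 of 3.98 (51.8 against 13.0 CPM, 3.32 to 4.79). ANKRD37 moved inside the 2-fold line, at 0.96, when barcodes ending in an undetermined base were left out. P4HA2 stood at 18.4 against 1.40 CPM, a ratio of 13.1 (8.13 to 22.3), but its mean was just under 10 CPM and it was not counted as tested.

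The direction was not shared by every hypoxia-responsive gene. ADM (chr11:10305073-10307397) had 5 UMIs in LNCaP–ENZ168 (0.792 CPM, 0.257 to 1.85) against 45.6 CPM in VCaP–ENZ48, a ratio of 0.0174 (0.0056 to 0.0407). BNIP3 stood at 326 CPM in LNCaP–ENZ168, as in VCaP parental (326 CPM), against 235 CPM in VCaP–ENZ48, which was -0.19 relative to the median gene. KDM3A (26.3 against 11.7 CPM) was 0.44 above it.

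Among 14 enzymes tested, 2 were called up and 1 down between the treated lines, beside 15.2% up and 18.6% down among all tested genes. The enzymes had a median of 0.40 (counting range 0.28 to 0.49), with 10 above and 4 below the median gene. ALDOC (chr17:28573115-28576948), the aldolase of the brain, stood at 135 CPM against 22.6 CPM, a ratio of 5.96 (5.24 to 6.80), and LDHA at 556 against 141 CPM, a ratio of 3.93 (3.72 to 4.16). LDHB (chr12:21635342-21757857), which favours the reverse step from lactate to pyruvate, was lower in LNCaP–ENZ168, at 472 against 1030 CPM, a ratio of 0.458 (0.440 to 0.476) and -1.78 relative to the median gene. All 3 kept their side of the 2-fold line under each of the 16 settings. HK1 came closest of the others, at 80.8 against 29.4 CPM (0.77). GAPDH (0.52), PKM (511 against 232 CPM, 0.48), PGK1 (472 against 215 CPM, 0.47) and TPI1 (0.40) lay above the median gene, and GPI (201 against 156.5 CPM, -0.30), PFKM (106 against 86.8 CPM, -0.37) and PGAM1 (60.2 against 52.3 CPM, -0.46) below it. PFKL (88.7 against 47.0 CPM) was 0.25 above it. ENO1 (935 against 554 CPM, 0.099) and PFKP (52.6 against 24.8 CPM, 0.40) changed sign under at least 1 setting. SLC2A1 (22.5 against 15.2 CPM, -0.12, -0.36 to 0.036 over the settings) and PDK1 (19.01 against 9.65 CPM, 0.25) were within 2-fold. PFKFB2, PFKFB3 and PFKFB4, at 9.98, 4.12 and 3.96 CPM in LNCaP–ENZ168, were not tested.

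**Figure D3:**
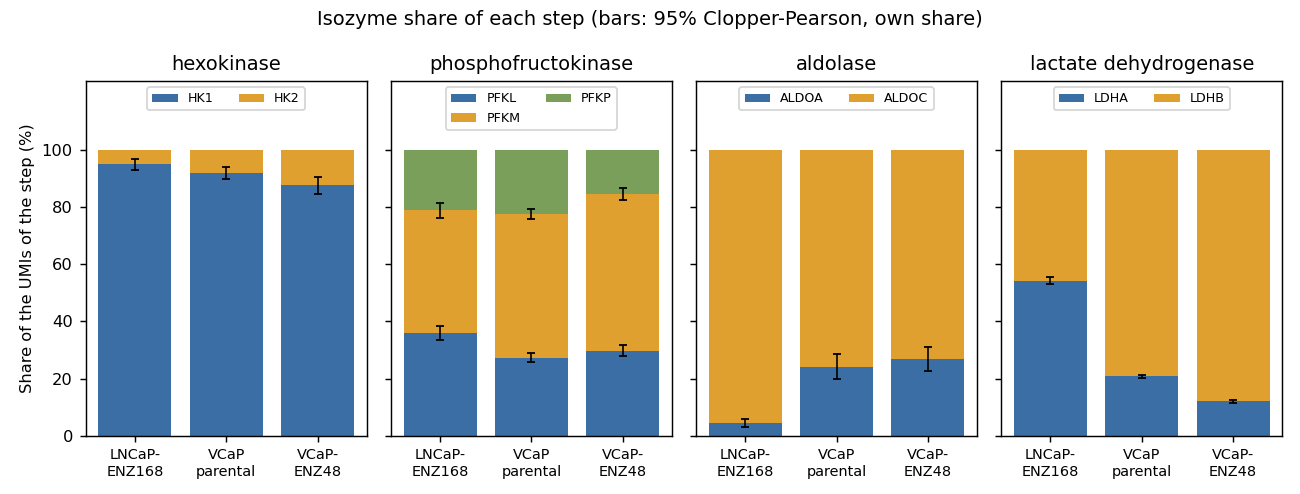
Share of each isozyme among the UMIs of its step in percent, for the 3 libraries, with bars for 95% Clopper-Pearson intervals of each share except the uppermost. The LDHA share is 54.1% in LNCaP–ENZ168, 20.7% in VCaP parental and 12.1% in VCaP–ENZ48.

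Shares within a step or family do not depend on how libraries are scaled. LDHA made up 54.1% of LDHA and LDHB UMIs in LNCaP–ENZ168 (52.9 to 55.3), 20.7% in parental VCaP cells (20.3 to 21.2) and 12.1% in those given ENZ (11.6 to 12.6). Within VCaP the share was thus lower in the ENZ-treated library, with intervals that did not overlap. HK1 carried most hexokinase UMIs, 94.97%, 92.0% and 87.7% in the order LNCaP–ENZ168, VCaP parental and VCaP–ENZ48. Phosphofructokinase was spread over 3 genes, of which PFKM, the muscle form, took 42.9%, 50.2% and 54.7%, and PFKP, the platelet form, 21.3%, 22.5% and 15.6%. PFKFB2 went from 52.1% of PFKFB UMIs in VCaP parental (137 of 263 UMIs) to 21.2% in VCaP–ENZ48 (22 of 104 UMIs), while in LNCaP–ENZ168 it took 55.3% (63 of 114 UMIs). BNIP3 made up 49.0% of BNIP3 and BNIP3L UMIs in LNCaP–ENZ168 and 99.98% and 99.9% in the VCaP libraries.

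ALDOC took 95.6%, 75.9% and 73.2% of aldolase UMIs, but the partner gene cannot be read safely. ALDOA had only 39, 93 and 118 UMIs (6.18, 4.77 and 8.25 CPM), and a later Gencode annotation has another protein-coding gene on the same strand over it, with which reads could be shared. GPI, PFKP, PGK1, LDHB and PFKFB4 also overlap another annotated gene on their strand. Processed pseudogenes named after GAPDH had 204, 314 and 620 UMIs, which was 0.962%, 0.998% and 2.85% of all UMIs given to GAPDH and these copies, and how the counting divided reads between these copies is not known here.

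**Figure D4:**
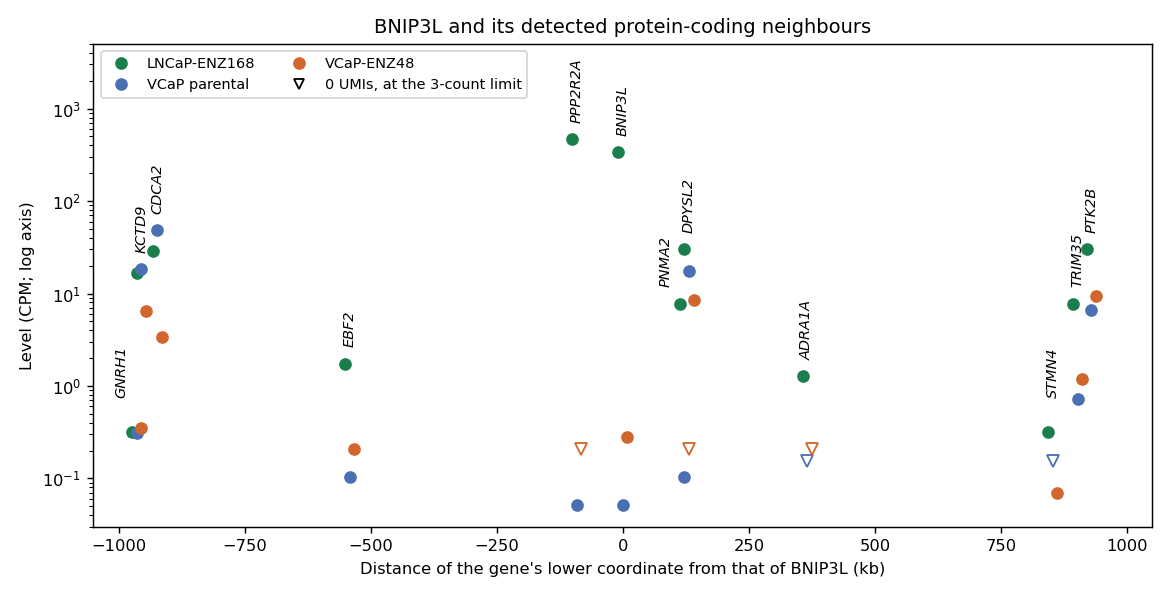
Levels in CPM (log axis) of BNIP3L and of the annotated protein-coding genes within 1000 kb that had a row in a file, against the distance between the lower coordinates of the gene and of BNIP3L in kb, with points shifted sideways by 9 kb between libraries and open triangles at the 3-count limit where no UMI was counted. PPP2R2A and BNIP3L, at 468 and 339 CPM in LNCaP–ENZ168, are next to each other and both near 0 in VCaP.

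Since BNIP3L was nearly absent from VCaP, the genes beside it on chromosome 8 were read as well. PPP2R2A, a regulatory subunit of protein phosphatase 2A that starts 91.5 kb before BNIP3L, had 2954 UMIs in LNCaP–ENZ168, 1 in VCaP parental and 0 in VCaP–ENZ48. PNMA2, which overlaps the end of BNIP3L on the other strand, had 49, 2 and 0 UMIs. The next gene, DPYSL2, which starts 131.0 kb after the start of BNIP3L, was present in all libraries with 190, 345 and 122 UMIs, and on the other side CDCA2, 923.9 kb away, had 180, 947 and 48 UMIs. Between them EBF2 had 11, 2 and 3 UMIs. The deposited counts hold no DNA measurement, and the cause was not tested.

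In single cells, each cell was thinned to 2000 UMIs so that depth was equal, which left out 1, 0 and 30 cells that were too shallow. A cell of LNCaP–ENZ168 then had a median of 16 enzyme UMIs (quartiles 11 and 21), one of VCaP parental 12 (9 and 15) and one of VCaP–ENZ48 9 (6 and 12). No cell was without an enzyme UMI in any library. The distributions overlapped, and the lower quartile, the median and the upper quartile all had the order of the totals. Like the totals, these counts were not set against the median gene. The variance was 3.36, 1.63 and 2.11 times the mean, against 1 for counting alone. Hypoxia-responsive genes gave 1.83, 0.867 and 0.606 UMIs per cell, and 184 of 943, 505 of 997 and 512 of 917 cells had none.

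**Figure D5:**
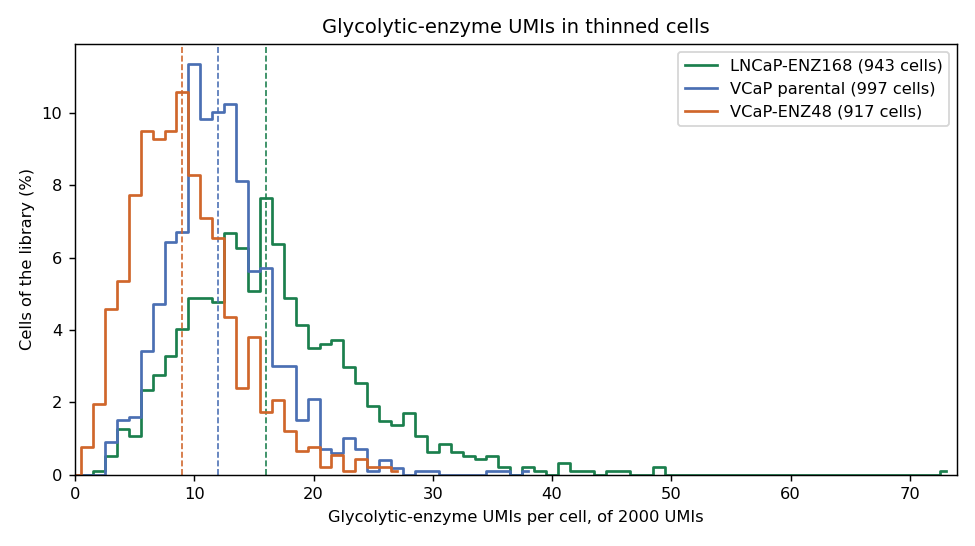
Percent of cells in each library by the number of glycolytic-enzyme UMIs per cell after thinning to 2000 UMIs, with dashed lines at the medians of 16, 12 and 9 UMIs. LNCaP–ENZ168 has the highest median and a tail beyond 40 UMIs.

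In cells rich in hypoxia-responsive UMIs, LDHA and PDK1 were among the genes that were higher in LNCaP–ENZ168 and VCaP parental. In VCaP–ENZ48 the intervals of the ratios of LDHA and PDK1 included no difference. In each library the cells highest in these UMIs were taken, at the count that at least 10% of cells reached. They were 118 cells with at least 4 UMIs in LNCaP–ENZ168, 204 cells with at least 2 in VCaP parental and 107 cells with at least 2 in VCaP–ENZ48. The enzymes took no part in this choice. Enzyme UMIs averaged 20.4 in these cells against 16.05 in the rest of LNCaP–ENZ168, 13.3 against 11.98 in VCaP parental and 9.44 against 9.10 in VCaP–ENZ48. LDHA, read from all UMIs of the same cells, stood at 991 against 486 CPM in LNCaP–ENZ168, 566 against 329 CPM in VCaP parental and 145 against 141 CPM in VCaP–ENZ48. Counting intervals of the log2 ratio for LDHA were 0.92 to 1.14, 0.71 to 0.86 and -0.16 to 0.23. PDK1 went the same way, with 35.2 against 16.4 CPM, 26.5 against 15.2 CPM and 9.33 against 9.73 CPM. PGK1 stood at 693 against 436 CPM, 349 against 316 CPM and 219 against 215 CPM, and ENO1 at 1178 against 896 CPM, 1081 against 863 CPM and 616 against 545 CPM, where the last pair also differed beyond counting error (0.082 to 0.27). LDHB did not follow in any library, at 467 against 472 CPM, 1398 against 1437 CPM and 1075 against 1024 CPM. TPI1, GAPDH, PKM and PFKM were also higher beyond counting error in LNCaP–ENZ168 and VCaP parental. So were GPI, PFKL, PFKP and ALDOC in LNCaP–ENZ168, PFKFB4 in VCaP parental and GAPDH in VCaP–ENZ48. Cells of 1 library are not replicates, and the cells chosen in VCaP–ENZ48 stand out by fewer UMIs than those of LNCaP–ENZ168. The variance of hypoxia-responsive UMIs was 1.42, 1.85 and 1.15 times the mean, against 1 for counting alone. In VCaP–ENZ48 the choice of cells was thus close to counting noise. The lack of a difference in LDHA and PDK1 there cannot show whether these genes go together in its cells.

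BNIP3 gave 2056 of the 5893 hypoxia-responsive UMIs in LNCaP–ENZ168, 6364 of 8458 in VCaP parental and 3362 of 4687 in VCaP–ENZ48. At least 3 BNIP3 UMIs of 2000 were seen in 45 of 943 cells of LNCaP–ENZ168, 50 of 997 of VCaP parental and 15 of 917 of VCaP–ENZ48, with a maximum of 9, 13 and 4. These cells held 26.9%, 31.8% and 12.3% of all BNIP3 UMIs in the thinned cells, and the variance was 1.43, 1.81 and 1.09 times the mean. Across cells of a library, LDHA and BNIP3 had Pearson's r of 0.34 in LNCaP–ENZ168, 0.22 in VCaP parental and -0.056 in VCaP–ENZ48, and Spearman's rho of 0.16, 0.11 and -0.043. In LNCaP–ENZ168 this was next to the highest of the pairs of abundant members, after GAPDH with LDHA (0.35). In VCaP parental it came after ENO1 with LDHA (0.24). These values describe the cells of 1 library each, at low counts. Enzyme UMIs also went down as the mitochondrial share of a cell went up, with r of -0.30, -0.16 and -0.27, whose part in the other values was not tested.

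Cell cycle phase, called from S and G2M genes on the thinned cells, moved with some members. Of the cells, 718, 281 and 787 were called G1, 132, 392 and 107 S, and 93, 324 and 23 G2M in the order LNCaP–ENZ168, VCaP parental, VCaP–ENZ48, so phase differed strongly between the VCaP libraries. Within G1 cells enzymes took 0.793%, 0.583% and 0.454% of UMIs, in the same order as over all cells. In VCaP, LDHA stood at 347 CPM in G1, 326 CPM in S and 450 CPM in G2M cells of VCaP parental, and at 132, 171 and 325 CPM in VCaP–ENZ48, where the last value rests on 23 cells and 105 UMIs. LDHA in G1 cells was thus 347 against 132 CPM between the VCaP libraries. ANKRD37 was highest in G1 cells of LNCaP–ENZ168, at 61.8 CPM (54.9 to 69.4), against 20.1 CPM in S and 26.9 CPM in G2M. BNIP3L in LNCaP–ENZ168 showed 372, 263 and 225 CPM in G1, S and G2M, and BNIP3 350, 300 and 207 CPM.

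The other hypoxia-responsive genes had no common direction between the treated lines. Of these genes 19 were tested, 4 were called up and 4 down in LNCaP–ENZ168, beside 15.2% up and 18.6% down among all tested genes, with 10 above and 9 below the median gene and a median of 0.066 (-0.062 to 0.21). TXNIP, which restrains glucose uptake (333 against 49.6 CPM), and DDIT4, an inhibitor of mTORC1 (107 against 26.6 CPM), were among those up, with PLOD1 and STC2. NDRG1 (36.7 against 190 CPM) and BHLHE41 (2.69 against 40.5 CPM) were among those down, with CA12 and RAB20. Of the other glycolysis and gluconeogenesis genes 11 were tested, 4 were up (BPGM, LDHD, PGM2 and SLC2A12) and 1 down. The latter was FBP1, the gluconeogenic fructose-1,6-bisphosphatase, with 6 UMIs (0.9504 CPM) in LNCaP–ENZ168 against 70.3 CPM in VCaP–ENZ48. LDHD, SLC2A12, FBP1 and BHLHE41 reached the mean of 10 CPM only through the library where they were high. They therefore had to differ, and the counts for their lists only describe the tested genes. Pyruvate entry had 11 tested, 0 up and 1 down, the phosphatase PDP1 (20.9 against 37.7 CPM), and the HIF pathway 5 tested with 0 calls and a median of 0.24.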

How the data were processed

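Each library was deposited as 1 table of raw UMI counts, with genes in rows and cell barcodes in columns. The authors processed the Drop-seq reads with the Drop-seq tools pipeline, STAR and Picard at default parameters, with GRCh38, a Gencode annotation and an expectation of 1000 cells. The authors describe a filter on genes, molecules and mitochondrial share for their single-cell samples, but thresholds for these Drop-seq libraries are not given in the sources used here. A gene without a row was counted as 0. The members and all gene lists were chosen with earlier results of these data known.

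Barcodes were kept when they had 300 or more genes, 500 or more UMIs and no more than 25% of UMIs from mitochondrial genes. Doublets were not identified or removed, and free RNA was not measured. UMIs were summed over kept cells and scaled to CPM. Log2 ratios between libraries are of CPM + 1 and were called at 2-fold. They are read relative to the median of all genes that averaged 10 CPM or more over the libraries compared. Other ratios between libraries are CPM over CPM. Levels have exact Poisson, ratios exact conditional and shares Clopper-Pearson 95% intervals. A list's counting range is the median of its members' lower and of their upper limits. The limit of a count of 0 is 3 counts. With 1 library per group no test was made. Intervals were tested only on counts simulated from a Poisson model, which the intervals themselves assume. The simulation held no variation between cells or libraries. Phases came from CellCycleScoring of Seurat 5.3.0 in R 4.3.3, TMM factors from edgeR 4.0.16 on the summed counts, and the rest from Python 3.11.15 with scipy 1.17.1. Coordinates are from Gencode and promoters from RefSeq, both on GRCh38, of a later version than the authors used. RefSeq promoters were matched by symbol for 28 of 32 members.

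All 32 members are given by their level in every library. Members called at 2-fold in either comparison, isozyme pairs and members with 3 or fewer UMIs in a library are shown in full, and of the other lists the genes called in VCaP, up to 4 a list. The HIF pathway genes named for VCaP, MPC2, DLAT, the neighbours of BNIP3L and the genes named from the other lists for the treated lines were chosen after their values were seen. In all, 16 alternatives covered the cell filter, depth, barcodes, cell weight, scaling, pseudocount, minimum level, phase and thinning. A minimum of 1000 UMIs and the merging of barcodes 1 base apart did not move the median of all genes in either comparison. A change of scaling moves a gene and the median gene together, so it can alter relative ratios only a little. Some marker and pathway results are not reported here.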

Additional observations from a re-analysis of the deposited data

How the results depend on the processing

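No result changed direction under the 16 alternatives where it was called, and 58 of 64 counts of called members and 54 of 64 list medians stayed close to the value given. CPM values moved in 322 cases and stayed in 830, log2 ratios in 172 and 852, and shares of cells in 247 and 521. Other shares moved in 45 cases and stayed in 441, and medians of all genes in 9 and 23. In VCaP the enzyme median of -0.30 was -0.18 without barcodes ending in an undetermined base, -0.39 with a minimum of 1 CPM, -0.18 with a minimum of 50 CPM, -0.18 in G1 cells and -0.19 in thinned cells. The hypoxia-responsive median, -0.0057, was -0.53 with a minimum of 1 CPM and -0.41 in G1 cells. Members called down numbered 1 with a pseudocount of 5 CPM, 4 with a minimum of 1 CPM and 1 with a minimum of 50 CPM, and 1 was called up in G1 cells. Between the treated lines, the hypoxia-responsive median of 1.45 was 1.14 with a pseudocount of 5 CPM, 2.07 with a minimum of 50 CPM and 1.16 in thinned cells, and with a minimum of 50 CPM 4 members were called up and 1 down. The minimum changes which genes are tested, and for the other settings the cause was not tested. TMM, median-of-ratios and totals without mitochondrial and ribosomal protein genes shifted the median of all genes by -0.27, -0.21 and 0.15 in VCaP and by -0.55, -0.51 and -0.25 between the lines. No paired analysis was possible because there is only 1 library in every group. Members under 10 CPM, and cell classes resting on 1 to 4 UMIs, are limited by depth.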
